A study of Mus musculus with 8 samples.

Results

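Markers of injured and repairing kidney tubule were followed as 1 group of 34 genes, found by symbol in the deposited tables among 47729 genes in all. Of the 34, 33 had enough counts to be tested, and the chemokine gene Ccl2 did not. Gene expression had been measured by strand-specific RNA-seq of total RNA from whole kidneys of mice on postnatal day 8. The 4 knockout libraries came from Six2Cre+KCTD1fl/fl mice, in which a Six2-driven Cre recombinase deletes the floxed Kctd1 gene, and the 4 libraries labelled wildtype came from control littermates. Six2 is active in nephron progenitors, so the deletion reaches the epithelium of the nephron, while collecting duct, stroma, vessels and blood cells lie outside that lineage. The Cre and floxed alleles of the littermates were not given in the sources used here. Separate animals are not stated for the libraries, and the p-values therefore measure spread among these 8 libraries, which may be technical. In whole kidneys, fewer cells of a type and less RNA per cell cannot be told apart.

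A tubule cell that is damaged loses part of its transport programme and takes on a repair state. In that state it makes proteins that are scarce in resting tubule, among them the phosphatidylserine receptor KIM-1 (gene Havcr1), the iron-siderophore carrier lipocalin 2, the chaperone clusterin, simple-epithelial keratins, vimentin and the progenitor transcription factor Sox9. Cells that do not complete repair are known for Vcam1 and for cytokines such as Ccl2, which draw in leukocytes. Several of these genes are also part of normal kidney development and of collecting duct, stroma or urothelium, so their level in an 8-day-old kidney is not zero.

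The libraries held 14457760 to 20741076 counts. Kctd1 itself spanned 22.4 to 25.8 CPM (counts scaled to a common library size) over the knockout libraries and 28.9 to 32.6 CPM over the wildtype libraries. The groups did not overlap, with a log2 fold change of -0.38 ± 0.09 (SE; edgeR quasi-likelihood, BH-adjusted p = 0.279, DESeq2 adjusted p = 0.0224), where BH stands for Benjamini-Hochberg. The ribosomal RNA gene Rn18s-rs5 took 5.39% of counts in knockout 2 and less in each of the other 7 libraries, and the TPM values of knockout 2 (a scale that allows for transcript length) ran lower, at 0.758 times the common level against 0.996 to 1.113 for the others. Reads of Xist, a transcript of the inactive X chromosome, numbered 81994 (knockout 2) and 101295 (wildtype 3), with no more than 151 elsewhere. For these reasons levels are compared between genes in TPM and between libraries in CPM.

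The injury markers of the young wildtype kidney spanned more than 3 orders of magnitude per transcript length. The highest was Spp1, the gene of the matrix phosphoprotein osteopontin, at 415 ± 60.8 TPM (SD, n = 4). It was followed by Vim (vimentin) at 260 ± 4.83 TPM and the S100 family genes S100a11 at 215 ± 9.73, S100a6 at 167 ± 21.9 and S100a10 at 158 ± 4.75 TPM. In all, 14 members stood at 20 TPM or more, 13 between 1 and 20 TPM and 7 below 1 TPM. The lowest was Havcr1, the classical urinary marker of proximal tubule injury, at 0.192 ± 0.060 TPM, a level that 4.14% of the tested genes did not reach. Fgg, Cxcl1, Krt20, Ccl2, Sox9 and Fgb were the other members below 1 TPM. In this order 23 of the 33 neighbouring pairs had wildtype ranges that overlapped and 10 did not. Spp1, Vim, S100a11 and S100a6 stood apart from one another, and Cd44, at 1.22 ± 0.080 TPM, stood apart from Fga above it and Fgb below it.

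**Figure D1:**
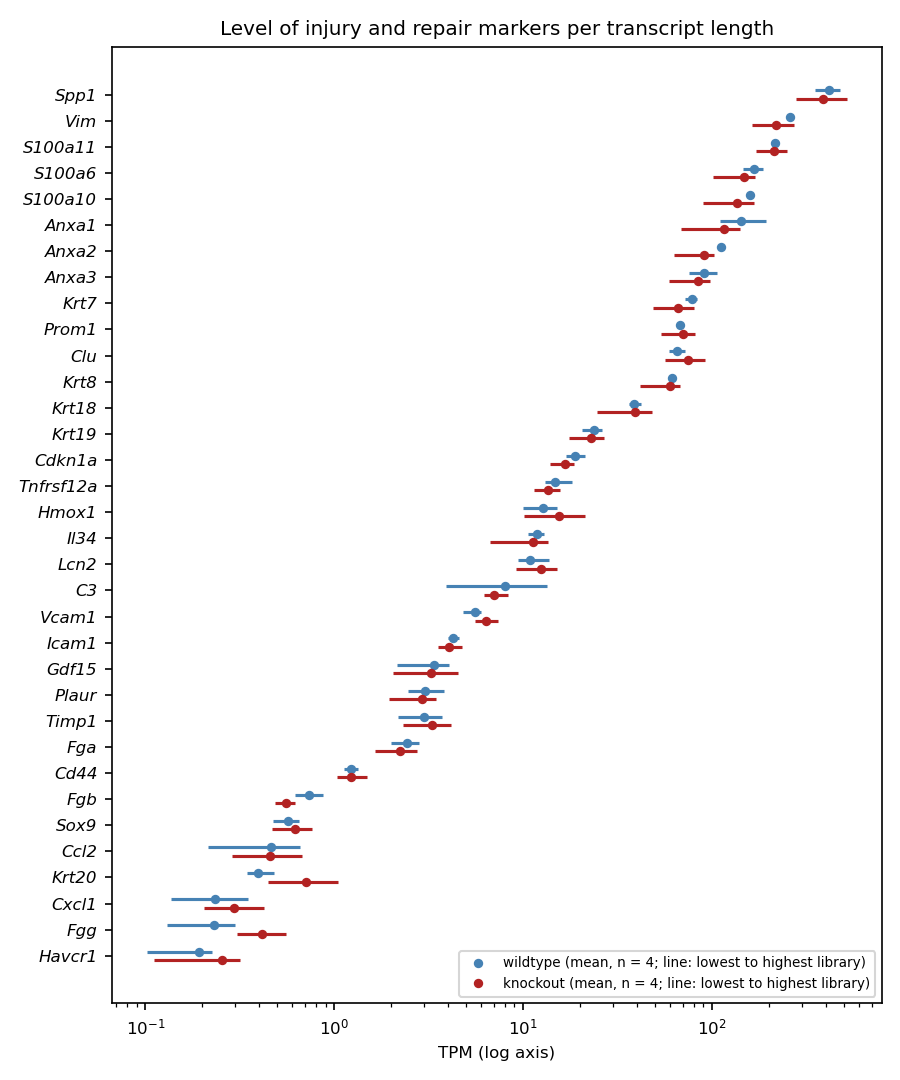
Level of each of the 34 members in TPM on a log axis, ordered by the wildtype mean, with the mean of 4 libraries as a point and the lowest to highest library as a line for knockout (red) and wildtype (blue). Spp1 is highest at 415 TPM and Havcr1 lowest at 0.192 TPM in wildtype, and for most members the lines of the groups overlap.

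None of the 33 tested members passed the threshold between knockout and wildtype. At an edgeR BH-adjusted p under 0.05 over all genes, 0 members were called, where 0.0809% of the 18548 genes tested were. DESeq2 also called 0 members, where it called 0.653% of genes, and limma-voom called 0. At an unadjusted edgeR p under 0.05, 7 members lay higher in knockout (Clu, Lcn2, Vcam1, Prom1, Krt20, Fgg and Hmox1) and 1 lower (Anxa2). These are 21.2% of the members tested on the higher side, where 3.11% of all genes lay higher and 3.08% lay lower at that p. In 5 members (Clu, Vcam1, Prom1, Krt20 and Fgg) every knockout library lay above every wildtype library, which was so for 1.97% of all genes, and in 0 members was it the reverse (2.06% of all genes). The log2 fold change was positive for 24 members, or 72.7%, and negative for 9, where 50.3% of all genes were positive. The median over members was 0.08, beside 0.00 over all genes tested. On unscaled log2(TPM + 1), on which the median of all genes itself lay at -0.11, 11 of 33 were positive, and at an unadjusted limma p under 0.05 2 members lay higher (Krt20 and Fgg) and 0 lower. After the TPM were scaled by library, 7 lay higher and 0 lower.

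**Figure D2:**
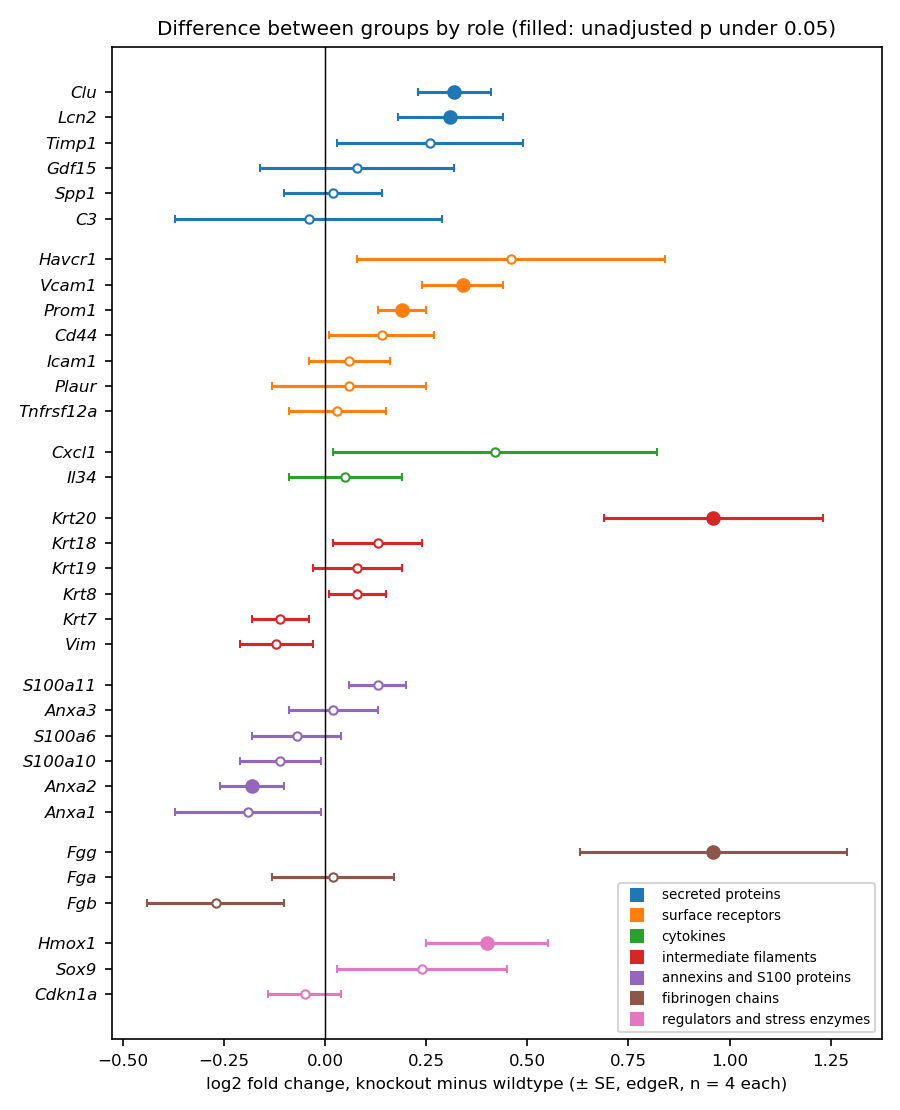
Log2 fold change of knockout minus wildtype with its standard error (edgeR, n = 4 each) for the 33 tested members, coloured by role. Filled points mark an unadjusted p under 0.05, 7 to the right of 0 and 1 to the left, and Krt20 and Fgg lie farthest to the right at 0.96.

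Krt20 and Prom1 were the members without overlap, besides Fgg, for which a promoter window was at hand. Of the 2 Prom1 windows, each with 1 AP-1 motif, 1 is shown. The windows run from 250 bases before to 50 after the start and are printed for their motifs, chr11:99438104-99438403 on the minus strand for Krt20 and chr5:44101687-44101986 on the minus strand for Prom1 (RefSeq, GRCm38.p6), with the TATAAA and TGANTCA motifs in capitals.
Krt20: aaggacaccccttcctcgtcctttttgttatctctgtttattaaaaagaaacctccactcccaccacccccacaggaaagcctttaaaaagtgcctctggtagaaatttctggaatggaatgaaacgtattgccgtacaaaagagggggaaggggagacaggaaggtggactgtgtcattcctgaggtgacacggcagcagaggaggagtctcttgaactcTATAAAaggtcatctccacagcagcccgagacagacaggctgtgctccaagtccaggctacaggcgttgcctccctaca
Prom1: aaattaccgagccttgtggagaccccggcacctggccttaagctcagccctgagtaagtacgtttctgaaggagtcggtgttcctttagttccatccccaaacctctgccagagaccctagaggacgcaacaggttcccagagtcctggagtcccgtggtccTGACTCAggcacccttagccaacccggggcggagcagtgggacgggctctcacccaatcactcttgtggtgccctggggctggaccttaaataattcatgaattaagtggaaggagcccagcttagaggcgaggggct
Windows were found for 25 members, 31 windows in all, and 5 motifs were searched on both strands. The AP-1 motif TGANTCA was in 7 of the 31 member windows, or 22.6%, in 7.81% of all 32851 windows of that length and in 5.48% of the 15492 windows of tested genes. The TATAAA motif was in 25.8% of member windows, 13.6% of all and 7.76% of those of tested genes. In the same order the STAT motif TTCNNNGAA was in 9.68%, 8.30% and 7.04%, an NF-kB motif in 6.45%, 1.63% and 1.70%, and the AP-2 motif GCCNNNGGC in 16.1%, 16.6% and 23.9%. AP-2 factors are the proteins that Kctd1 is known to repress. These are matches of letters and say nothing of binding.

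Among the secreted proteins, clusterin showed the smallest p of any member. Clu measured 240, 234, 237 and 274 CPM in knockout libraries 1 to 4, against 178, 207, 218 and 183 CPM in wildtype libraries 1 to 4. The knockout values lay above all wildtype values, with knockout 4 the highest library. The means of 246 ± 18.9 and 197 ± 19.0 CPM (SD, n = 4 each) differed by 1.25-fold, a log2 fold change of 0.32 ± 0.09 (SE; edgeR quasi-likelihood, unadjusted p = 0.00322, BH-adjusted p = 0.398), and its DESeq2 adjusted p of 0.0937 was the lowest in any fit. Lcn2, the gene of the lipocalin released by stressed distal nephron, measured 18.2, 16.6, 16.8 and 19.7 CPM (knockout) against 12.8, 13, 18.2 and 13.3 CPM (wildtype). Wildtype 3 reached the knockout range while the other 3 wildtype libraries lay below it. Its log2 fold change was 0.31 ± 0.13 (edgeR quasi-likelihood, BH-adjusted p = 0.787).

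Spp1, the highest member, measured 816, 854, 938 and 1141 CPM (knockout) against 1013, 819, 850 and 1008 CPM (wildtype), with ranges that overlapped almost completely (log2 fold change 0.02 ± 0.12). The complement gene C3 was the least steady member, from 6.88 CPM in wildtype 3 to 22.1 CPM in wildtype 4, a 3.22-fold spread inside 1 group, while the knockout libraries stayed between 11.4 and 15.1 CPM. The metalloproteinase inhibitor gene Timp1 measured 4.17 ± 0.815 CPM (knockout) against 3.49 ± 0.876 CPM (wildtype), and Gdf15, which encodes a stress-induced hormone of the TGF-beta family, 7.98 ± 2.12 and 7.58 ± 1.84 CPM (SD, n = 4 each). In both genes the groups overlapped.

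All 7 surface receptors had positive log2 fold changes, from 0.03 to 0.46, where 50.3% of all genes tested were positive. Icam1, Cd44, Tnfrsf12a and Plaur, though, turned negative or to 0.00 on the TPM scale. In 2 of the 7 every knockout library lay above every wildtype library, which was so for 1.97% of all genes. Vcam1, the adhesion molecule that binds leukocyte integrins and marks tubule cells with incomplete repair, measured 38.1, 45.4, 39.5 and 43.1 CPM (knockout) against 34, 36.8, 28.5 and 31.9 CPM (wildtype). The lowest knockout library stood just above the highest wildtype library. The log2 fold change was 0.34 ± 0.10, or 1.27-fold (edgeR quasi-likelihood, unadjusted p = 0.0059, BH-adjusted p = 0.475). Prom1, which encodes the progenitor surface protein CD133, measured 181, 180, 197 and 197 CPM (knockout) against 166, 172, 162 and 162 CPM (wildtype). Each group was tight, and the difference of 14.2% was the smallest of the 5 that did not overlap (log2 fold change 0.19 ± 0.06, edgeR quasi-likelihood, BH-adjusted p = 0.587). On log2(TPM + 1) the Prom1 difference was 0.04 unscaled and 0.20 scaled by library.

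The other receptors overlapped between groups. Havcr1 rested on 8 to 19 counts a library in knockout and 5 to 14 in wildtype, so at this depth its log2 fold change of 0.46 carried an SE of 0.38. Icam1, the other leukocyte adhesion molecule of the group, measured 20.2 ± 1.84 CPM (knockout) against 19.4 ± 0.760 CPM (wildtype), the hyaluronan receptor gene Cd44 12.6 ± 1.78 and 11.5 ± 0.886 CPM, and Tnfrsf12a, the receptor of the cytokine TWEAK, 20.7 ± 0.939 and 20.3 ± 3.08 CPM (SD, n = 4 each). Icam1 and Tnfrsf12a were also slightly negative (-0.01 each) without the 2 libraries with Xist reads. Plaur, the receptor of urokinase, measured 7 ± 0.808 and 6.70 ± 1.58 CPM.

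**Figure D3:**
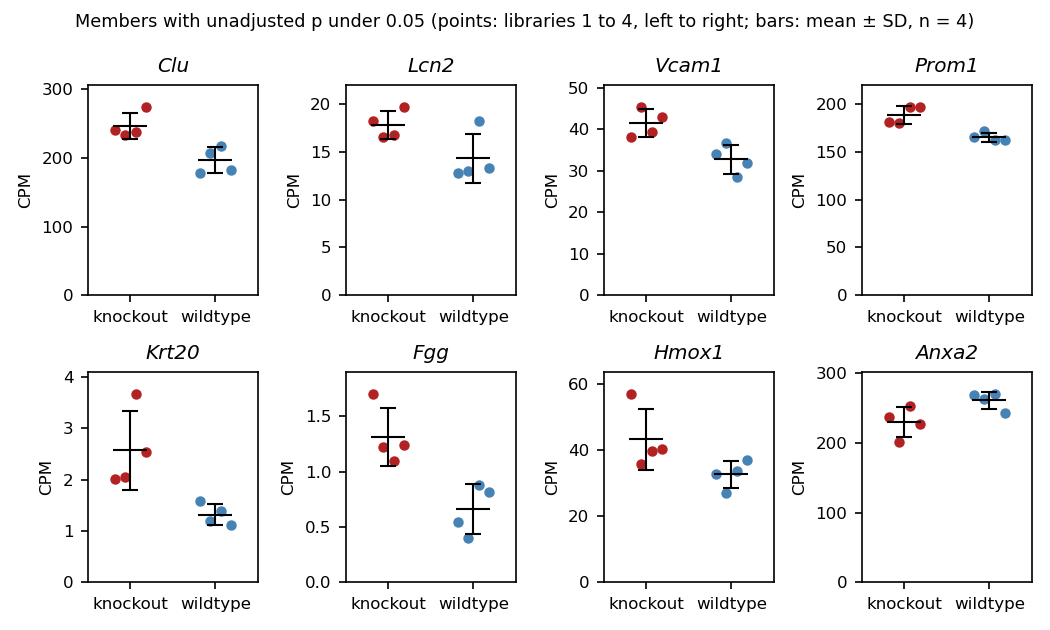
CPM in each library for the 8 members with an unadjusted p under 0.05, with knockout in red, wildtype in blue, libraries 1 to 4 from left to right, and bars for the mean ± SD (n = 4). Clu, Vcam1, Prom1, Krt20 and Fgg show no overlap, in Lcn2 wildtype 3 lies within the knockout range, and Anxa2 is the 1 member that lies lower.

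Among binding partners of the members, the plasminogen activators lay lower. Of a list of 29 ligands, receptors and other partners, 24 were tested, 11 with positive and 13 with negative log2 fold changes (median -0.02). At an unadjusted edgeR p under 0.05, 0 lay higher and 3 lower, where 3.11% of all genes lay higher and 3.08% lower. The same 3 had groups that did not overlap, which on the lower side was so for 2.06% of all genes. DESeq2 called 2 of the list, both lower, where it called 0.653% of genes. Plau, the gene of urokinase, the ligand of Plaur and a plasminogen activator, measured 701, 612, 705 and 693 CPM (knockout) against 874, 859, 867 and 848 CPM (wildtype). All knockout libraries lay far below the tight wildtype group. The log2 fold change of -0.35 ± 0.07 missed the threshold with edgeR (quasi-likelihood, BH-adjusted p = 0.14) and passed with DESeq2 (adjusted p = 0.00019). Plat, the tissue-type plasminogen activator gene, measured 63.9, 86.5, 81.1 and 84.5 CPM against 104, 101, 107 and 102 CPM, again without overlap and with knockout 1 the lowest library (log2 fold change -0.39 ± 0.09, edgeR quasi-likelihood, BH-adjusted p = 0.318, DESeq2 adjusted p = 0.0332). Csf1r, the macrophage receptor of the cytokine IL-34, measured 50.6 to 54.7 CPM (knockout) against 55.5 to 63.3 CPM (wildtype), a log2 fold change of -0.18 ± 0.07 (edgeR quasi-likelihood, BH-adjusted p = 0.706).

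**Figure D4:**
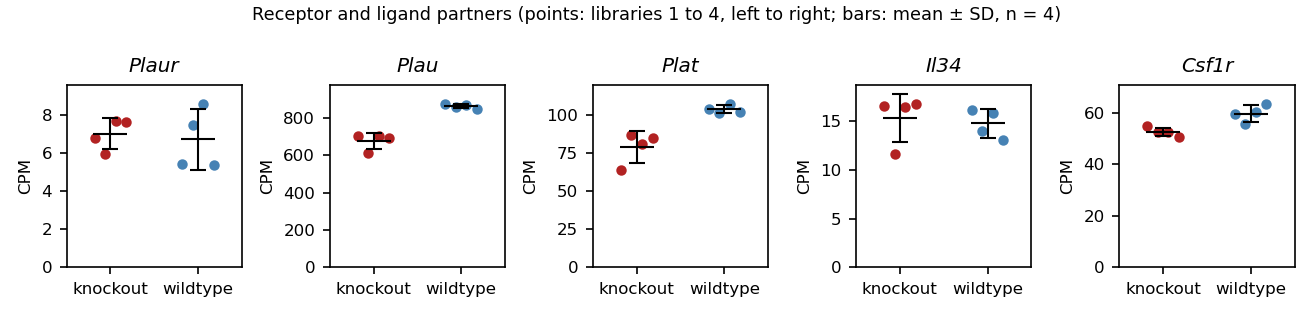
CPM in each library for the urokinase receptor gene Plaur, the activator genes Plau and Plat, the cytokine gene Il34 and its receptor gene Csf1r, with knockout in red, wildtype in blue and bars for the mean ± SD (n = 4). Plau, Plat and Csf1r lie lower in every knockout library than in any wildtype library, while Plaur and Il34 overlap.

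Of the cytokines, Il34, a survival factor for macrophages made by tubule cells, measured 16.5, 11.6, 16.4 and 16.7 CPM (knockout) against 16.1, 14, 15.8 and 13 CPM (wildtype). Knockout 2 stood apart as the lowest, and the groups overlapped. The neutrophil chemokine gene Cxcl1 had 9 to 14 counts a library in knockout and 5 to 12 in wildtype and the monocyte chemokine gene Ccl2, left out of the test, had 8 to 16 and 5 to 12. The log2 fold change of Cxcl1 was 0.42, and 2 SE to either side ran from -0.39 to 1.23.

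Of the 6 intermediate filament genes only Krt20 had groups that did not overlap. Krt20, a keratin of urothelium and of injured proximal tubule, measured 2.01, 2.06, 3.66 and 2.54 CPM (knockout) against 1.58, 1.2, 1.38 and 1.11 CPM (wildtype). Knockout 3 stood highest. Its 1.94-fold difference (log2 fold change 0.96 ± 0.27, edgeR quasi-likelihood, unadjusted p = 0.00548, BH-adjusted p = 0.464) rested on 32 to 53 counts a library in knockout and 18 to 28 in wildtype. Krt8 and Krt18, which pair into the filaments of simple epithelia, measured 214, 176, 212 and 206 against 184, 198, 194 and 186 CPM, and 93.6, 77.1, 107 and 108 against 83.2, 86.7, 96.5 and 84.9 CPM. Knockout 2 was the lowest library for both, and the other 3 knockout libraries lay above all wildtype libraries for Krt8 and above at least 3 of the 4 for Krt18. Without knockout 2 both reached an unadjusted edgeR p under 0.05. The log2 ratio of Krt8 to Krt18 in TPM was 0.64 ± 0.14 for knockout, beside 0.68 ± 0.08 for wildtype (SD, n = 4 each; exact two-sided permutation test, p = 0.629, Benjamini-Hochberg adjusted p = 0.629 over 4 ratios).

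Krt7 and Vim lay slightly to the other side. Krt7, a keratin of collecting duct and urothelium, measured 191, 178, 190 and 211 CPM (knockout) against 215, 200, 210 and 209 CPM (wildtype), and knockout 4 lay inside the wildtype range. Vim, the mesenchymal filament that dedifferentiated tubule cells regain, measured 319, 345, 442 and 371 CPM (knockout) against 392, 414, 406 and 389 CPM, with knockout 3 above every wildtype library and the other 3 below (log2 fold change -0.12 ± 0.09). Krt19 measured 42.7, 38.3, 34.9 and 42.2 CPM (knockout) against 41.6, 40.0, 37.3 and 31.1 CPM (wildtype), and the groups overlapped.

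Annexins bind calcium and membranes, and the S100 protein S100a10 forms a complex with annexin A2. Of the 6 annexin and S100 members 4 had negative log2 fold changes, and on the TPM scale Anxa3 and S100a11 turned negative too. Anxa2 measured 238, 202, 253 and 228 CPM (knockout) against 269, 263, 270 and 243 CPM (wildtype), so that knockout 3 overlapped wildtype 4 (log2 fold change -0.18 ± 0.08, edgeR quasi-likelihood, unadjusted p = 0.0396, BH-adjusted p = 0.775). Its partner gene S100a10 measured 118, 106, 151 and 131 against 135, 140, 144 and 128 CPM, with knockout 3 the highest of the 8 libraries. The log2 ratio of S100a10 to Anxa2 was 0.56 ± 0.12 for knockout, beside 0.50 ± 0.04 for wildtype (exact two-sided permutation test, p = 0.40, Benjamini-Hochberg adjusted p = 0.533 over 4 ratios, SD with n = 4 each). S100a11 measured 112, 122, 127 and 128 against 117, 114, 107 and 107 CPM, where 3 knockout libraries lay above all wildtype libraries. Anxa1, whose protein damps leukocyte entry, measured 46.3, 34, 49.5 and 49.7 against 50.3, 41.4, 70.3 and 43.0 CPM, and wildtype 3 was far above the rest: without it the log2 fold change was 0.00 in place of -0.19. Anxa3 measured 74.1, 66.5, 79.8 and 79.2 against 86, 65.7, 62.7 and 81.2 CPM. S100a6 measured 70.6, 58.8, 69.9 and 70 against 78.2, 66.6, 79 and 58.1 CPM. In both the ranges overlapped.

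The 3 fibrinogen chains, which assemble into the clotting protein and are made by injured tubule as well as liver, lie side by side on chromosome 3 and gave different values. Their promoter windows from RefSeq (GRCm38.p6, 250 bases before to 50 after the start) are shown because the genes are neighbours whose values differ. They are chr3:83025903-83026202 on the plus strand for Fga, chr3:83049814-83050113 on the minus strand for Fgb and chr3:83007474-83007773 on the plus strand for Fgg. Capitals mark the STAT motif TTCNNNGAA and the AP-1 motif TGANTCA, searched on both strands.
Fga: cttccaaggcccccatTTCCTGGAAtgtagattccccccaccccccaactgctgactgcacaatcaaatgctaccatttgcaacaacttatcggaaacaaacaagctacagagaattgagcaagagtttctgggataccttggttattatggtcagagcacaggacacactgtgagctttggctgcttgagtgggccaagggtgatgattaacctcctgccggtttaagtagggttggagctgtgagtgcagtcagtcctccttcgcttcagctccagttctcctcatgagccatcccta
Fgb: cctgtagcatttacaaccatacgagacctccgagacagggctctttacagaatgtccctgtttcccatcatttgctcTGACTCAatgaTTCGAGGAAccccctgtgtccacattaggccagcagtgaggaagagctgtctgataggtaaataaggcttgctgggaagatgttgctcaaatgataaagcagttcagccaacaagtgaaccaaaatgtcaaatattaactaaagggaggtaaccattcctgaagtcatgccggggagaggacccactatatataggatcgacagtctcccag
Fgg: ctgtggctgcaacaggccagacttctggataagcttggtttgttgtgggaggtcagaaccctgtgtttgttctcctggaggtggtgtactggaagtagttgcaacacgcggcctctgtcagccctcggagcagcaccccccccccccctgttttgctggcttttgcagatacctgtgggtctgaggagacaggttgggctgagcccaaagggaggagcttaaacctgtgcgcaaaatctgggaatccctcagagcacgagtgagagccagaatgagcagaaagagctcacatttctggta
The windows of Fga and Fgb each held 1 STAT motif, and that of Fgb also 1 AP-1 motif. The Fgg window held neither.

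Fgg, the gamma chain gene, measured 1.70, 1.22, 1.10 and 1.24 CPM (knockout) against 0.548, 0.401, 0.884 and 0.817 CPM (wildtype). All knockout libraries lay above all wildtype libraries, on 16 to 27 counts against 6 to 18. The log2 fold change was 0.96 ± 0.33 (edgeR quasi-likelihood, unadjusted p = 0.0157, BH-adjusted p = 0.641). The alpha chain gene Fga measured 11.4, 9.12, 10 and 8.66 CPM (knockout) against 11, 8.89, 8.15 and 10.7 CPM (wildtype), and the beta chain gene Fgb 4.53, 4.73, 4.00 and 3.98 against 6.15, 4.94, 4.42 and 5.24 CPM. Both overlapped, and Fgb lay toward the lower side in knockout (log2 fold change -0.27 ± 0.17). Within libraries, the log2 ratio of Fgg to Fgb in TPM was -0.44 ± 0.23 for knockout, beside -1.75 ± 0.63 for wildtype and did not overlap. The exact two-sided permutation test gave p = 0.0286, the smallest that 4 against 4 libraries allow, and 0.114 after Benjamini-Hochberg adjustment over 4 ratios (SD, n = 4 each). Fga to Fgb gave 1.99 ± 0.19 and 1.71 ± 0.09 (exact permutation test, p = 0.0571, adjusted p = 0.114, n = 4 each). An RNA gene, Gm30097, overlaps Fgg on the opposite strand, and how reads of both were divided was not examined.

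The sum of hepatocyte markers was highest in knockout 1. Alb, the albumin gene, had 504 counts in knockout 1 and 2 to 28 in the other 7 libraries, and Ahsg, another liver gene, 28 counts in knockout 1 and at most 4 elsewhere. Over the 11 hepatocyte markers, of which 0 were at 0 in every library, the summed level ranged from 174 to 301 CPM (knockout) against 162 to 198 CPM (wildtype). Ttr (transthyretin), the largest part of the sum in every library, measured 107 to 194 against 73.2 to 99.9 CPM, without overlap (DESeq2 adjusted p = 0.00037, edgeR BH-adjusted p = 0.211). Serpina1a, the next largest part, measured 30.4 to 59 against 46.9 to 57.4 CPM and overlapped (log2 fold change -0.16). Among the 6 tested genes of the list 4 were positive and 2 negative (median 0.03). Those left untested each had a knockout mean of 0.6 CPM or less, above the wildtype mean. Knockout 1 was the highest library for every marker of the list but Ttr and Tf (transferrin), which peaked in knockout 4. The part of liver RNA in the Fgg values was not tested. Fgg was highest in knockout 1, and without that library its log2 fold change was 0.82 and its unadjusted edgeR p 0.0513.

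Of the regulators and stress enzymes, Hmox1, the heme oxygenase that breaks down heme, measured 56.9, 35.8, 39.9 and 40.4 CPM (knockout) against 32.8, 27.2, 33.7 and 37.0 CPM (wildtype). Knockout 1 was far above the others and knockout 2 lay inside the wildtype range. Its log2 fold change was 0.40 ± 0.15 (edgeR quasi-likelihood, unadjusted p = 0.0218, BH-adjusted p = 0.699), and 0.24 without knockout 1. Sox9 measured 3.96, 5, 6.07 and 5.77 against 3.90, 5.21, 5.06 and 3.46 CPM, with 2 knockout libraries above all wildtype libraries. The cell cycle inhibitor gene Cdkn1a (p21) measured 61.4, 60.8, 57.7 and 51.8 against 55.0, 56.1, 67.9 and 60.8 CPM and overlapped throughout.

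Other genes of the same pathways, taken from lists that hold no member, gave 0 calls with edgeR over all genes in each list. Of 16 p53 targets, the programme to which Cdkn1a and Gdf15 belong, 13 were positive and 3 lay higher at an unadjusted edgeR p under 0.05, where 3.11% of all genes did. They were Pmaip1, which encodes the death protein NOXA (6.27 ± 0.681 against 3.77 ± 0.846 CPM, without overlap), Sesn2, a stress-induced sestrin (44.6 ± 4.30 against 37.1 ± 0.713 CPM, without overlap), and Aen, an apoptosis nuclease (30.6 ± 7.76 against 22.2 ± 2.58 CPM, SD, n = 4 each). Their BH-adjusted edgeR p values were 0.382, 0.571 and 0.70. Of 15 NRF2 targets and heme-handling genes 8 were positive and 7 negative, and Hmox2, the constitutive heme oxygenase, measured 61.9 ± 5.13 CPM (knockout) against 71.5 ± 4.85 CPM (wildtype), lower at an unadjusted p of 0.033 while its inducible relative Hmox1 lay higher.

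A list of 35 further injury and repair genes gave 33 tested, 15 positive and 18 negative (median -0.07), with 0 higher and 2 lower at an unadjusted edgeR p under 0.05, namely Ccn2, a matricellular target of YAP and TGF-beta, at 78.1 ± 9.49 against 96.2 ± 13.6 CPM, and Dcdc2a, a doublecortin family gene, at 84.6 ± 12.6 against 103 ± 6.63 CPM (SD, n = 4 each). Of 13 tested NF-kB targets 5 were positive and 8 negative, and 0 reached that p. Of 9 tested STAT3 and acute phase genes 5 were positive and 4 negative, and again 0 reached it. Over all genes tested 3.11% lay higher and 3.08% lower at that p. Socs3, the feedback inhibitor of STAT3, measured 37.5, 14.8, 5.73 and 9.96 CPM (knockout) against 12.3, 5.28, 6.53 and 9.62 CPM (wildtype). Knockout 1 stood far above the rest, knockout 2 lay above the highest wildtype library, and knockout 3 and 4 lay inside the wildtype range. Of 16 tested S100 and annexin genes outside the members 6 were positive and 10 negative, with 1 higher (Anxa6, 240 ± 10.2 against 217 ± 9.23 CPM) and 2 lower (S100g, the calcium carrier calbindin-D9k, 382 ± 88.8 against 506 ± 48.0 CPM, and S100a3, 0.381 ± 0.235 against 0.932 ± 0.432 CPM, n = 4 each).

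Levels of other cell types that carry members were read beside them, and their part in the results was not tested. The 12 urothelial markers, of which 0 were at 0 throughout, summed to 147 to 185 CPM (knockout) against 143 to 173 CPM (wildtype). The largest parts of this sum in every library were Gata3, at 39 to 78.4 against 49.2 to 69.6 CPM, and Foxq1, at 41.6 to 47.1 against 35 to 36.2 CPM. Of the 11 tested, 8 were positive and 3 (Krt14, Trp63 and Psca) negative, with log2 fold changes of -0.32, -0.18 and -0.11 for these 3. At an edgeR p under 0.05 before adjustment 2 lay higher and 0 lower, where 3.11% of all genes lay higher and 3.08% lower. The 2 were the plaque gene Upk3a and the transcription factor gene Foxq1. Upk3a measured 15.2 ± 1.48 against 12.1 ± 1.10 CPM (edgeR BH-adjusted p = 0.658) and Foxq1 44.5 ± 2.28 against 35.4 ± 0.548 CPM (edgeR BH-adjusted p = 0.23, DESeq2 adjusted p = 0.0113, SD, n = 4 each). Foxq1 did not overlap between groups, and the plaque genes Upk3a, Upk1a, Upk1b and Upk2 did. The 12 macrophage markers summed to 141 to 180 and 140 to 148 CPM, and 8 were positive and 4 negative (median log2 fold change 0.03). At an unadjusted edgeR p under 0.05, 1 lay higher and 1 lower. The higher was the class II chain gene Cd74 at 28.6 ± 5.20 against 21.5 ± 3.97 CPM. The lower was the lysozyme gene Lyz2 at 23.8 ± 1.70 against 29.1 ± 0.807 CPM. Lyz2 was the 1 marker of the 12 without overlap, which on the lower side was so for 2.06% of all genes. The 10 neutrophil markers summed to 3.89 to 9.59 and 4.38 to 9.09 CPM. The granule gene Elane, 1 of these 10, was at 0 in 7 of the 8 libraries. Collecting duct markers (10 genes) summed to 817 to 1239 and 873 to 944 CPM and stromal markers (12 genes) to 7139 to 8121 and 7074 to 8115 CPM, overlapping in both cases. Tubular markers showed the tissue as labelled, with 13 proximal tubule genes summing to 8123 to 9634 and 8651 to 8992 CPM.

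Read by library, the members were not uniform within groups. Knockout 4 lay above the mean of the 8 libraries in 28 of 33 members (median 0.14 on the log2 scale) and knockout 3 in 25 (0.10), while knockout 1 did so in 20 (0.03) and knockout 2, the library rich in ribosomal RNA, in 15 (-0.03). Wildtype 1 lay above it in 20 (0.03), and wildtype 2, 3 and 4 in 12, 13 and 11 (-0.05, -0.04 and -0.11). Knockout 2 and wildtype 1 thus crossed the order of the groups. Over all genes tested the same medians were 0.00 to 0.01 in every library. Without knockout 2 the median log2 fold change of the members was 0.13, 9 members had an unadjusted edgeR p under 0.05 on the higher side and 0 on the lower, and without knockout 4 the median was 0.04.

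**Figure D5:**
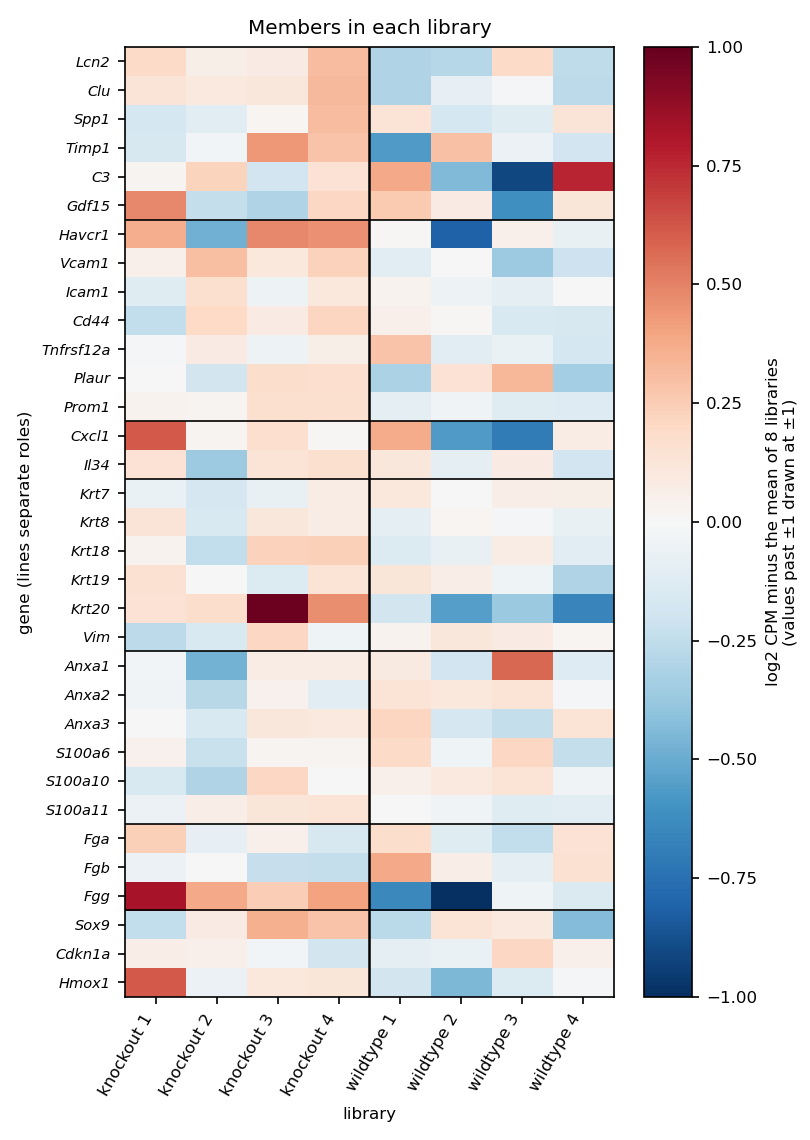
Log2 CPM of each tested member (rows, grouped by role) minus its mean over the 8 libraries (columns), red above and blue below. Knockout 3 and 4 are red in most rows, wildtype 4 is blue in most, and C3, Gdf15, Anxa1 and Hmox1 show 1 or 2 single libraries that stand out.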

How the data were processed

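RNA-seq of total RNA was deposited for 8 whole-kidney libraries, 4 knockout and 4 wildtype, grouped by their titles. Salmon, DESeq2 1.14.1 and the mm10 build are named in the submitters' processing notes, without a Salmon version or role. The authors deposited estimated counts per gene, rounded to whole numbers, and TPM per gene, both per the file headers and values. The annotation release they used was not given in the sources used here.

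Since the count table carries no names, its rows were matched by order with the 47729 distinct TPM identifiers (2 are repeated). As a check, log2 count-to-TPM ratios of 13251 genes (minimum 50 counts) had a median SD across libraries of 0.00074, and 0.281 once shifted by 1 row.

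Knockout was compared with wildtype with edgeR 4.0.16 in R 4.3.3 (filterByExpr, TMM scaling, robust quasi-likelihood test, two-sided, genotype alone, Benjamini-Hochberg over 18548 genes, threshold 0.05). SE is the absolute log2 fold change over the square root of F. In simulated counts for this comparison (18548 genes) recovery was 35.8% at 1.5-fold (67 genes), 64.2% at 2-fold (67 genes) and 90.9% at 4-fold (66 genes), with 12 false calls among 139. The altered genes were drawn from those averaging at least 1 CPM, so these rates do not cover members below that level, such as Havcr1 and Cxcl1. Alternatives were RLE and upper-quartile scaling, other filters, DESeq2 1.42.0, limma-voom (limma 3.58.1), a non-robust fit, a replicate block, limma-trend (log2 of TPM plus 1 or 0.1), Xist reads as a covariate, leaving out both libraries with Xist reads and each library in turn. Scaled TPM was added after seeing the data.

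The members and lists were chosen with earlier results of these data known, so no test was made over a list. Members with an unadjusted p under 0.05, groups that do not overlap or at least 20 TPM are given by library. From other lists up to 3 genes with the smallest p are named. Elane, Ahsg, Tf, Gata3, Pax8, Akap12, Ncam1, Bmp6, Krt14, Trp63, Psca, Upk1a, Upk1b and Upk2 were chosen after their values were seen. Ccn1, Ccn2 and Tf were matched by their synonyms in RefSeq's GRCm38.p6 table. Exons of 9 members overlap a gene on the opposite strand and those of 2 a gene on the same strand in GENCODE M21, and strand use in counting was not given in the sources used here.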

Additional observations from a re-analysis of the deposited data

Results flagged for a closer look

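Among 90 sets of 4 libraries looked at (34 members and 11 summed marker lists in 2 groups), 5 had an outlying library, beside 4.5 that chance alone would yield at 1 in 20. The measure is the gap to the nearest library over the range of the group. Knockout 2 was low for 3 members: Havcr1 at 0.445 CPM against 0.88 to 0.966 (0.836), Il34 at 11.6 CPM against 16.4 to 16.7 (0.937) and S100a6 at 58.8 CPM against 69.9 to 70.6 (0.94). Knockout 4 was high for Clu, at 274 CPM against 234 to 240 (0.87). Wildtype 3 was high for Lcn2, at 18.2 CPM against 12.8 to 13.3 (0.92).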

How the results depend on the processing

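The 33 members made 0 calls in every fit run, at adjusted p under 0.1 as well except Clu with DESeq2 (adjusted p = 0.0937). Of 691 values of single members under the alternatives, 634 kept their direction and 57 changed it. The count of genes called, 15, was 23 at adjusted p under 0.1, 27 with no filter, 153 with DESeq2, 6 with each limma fit on unscaled TPM, 3 without the 2 libraries with Xist reads, and 10 to 52 with a library left out (29 without knockout 3, 52 without wildtype 4). The 7 members higher at an unadjusted p under 0.05 were 2 (Krt20 and Fgg) with each fit on unscaled TPM and 5 to 9 with a library left out. The 1 lower was 0 with upper-quartile scaling, with each fit on TPM, scaled TPM included, and without the Xist libraries, and 0 to 3 with a library left out (3 without knockout 3). The members' median of 0.08 was -0.06 in both fits on unscaled TPM, and 0.04 to 0.13 with a library left out. In those fits the median of all genes lay at -0.11 and -0.14, and after scaling TPM by library the members' median was 0.08 again.

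With log2(TPM + 1) and log2(TPM + 0.1) these members turned negative: Spp1 (-0.13 and -0.13), Krt8 (-0.06 and -0.06), Krt18 (-0.02 and -0.02), Krt19 (-0.06 and -0.07), Icam1 (-0.07 and -0.09), Cd44 (0.00 and -0.01), Il34 (-0.09 and -0.10), Anxa3 (-0.11 and -0.12), S100a11 (-0.01 and -0.01), Tnfrsf12a (-0.10 and -0.11), Plaur (-0.04 and -0.06), Gdf15 (-0.05 and -0.07) and Fga (-0.09 and -0.12). C3 was 0.11 with limma-voom, 0.09 with the replicate block, 0.03 with the Xist covariate and 0.08 with scaled TPM. Without the Xist libraries Icam1 was -0.01, Anxa1 0.11, S100a6 0.05, Tnfrsf12a -0.01 and Fga -0.03. With a library left out the ranges of those that changed direction were -0.09 to 0.08 for Spp1, 0.00 to 0.13 for Krt19, 0.00 to 0.16 for Il34, -0.26 to 0.29 for C3, -0.05 to 0.10 for Anxa3, -0.03 to 0.14 for Tnfrsf12a, -0.03 to 0.21 for Plaur, -0.09 to 0.01 for Cdkn1a, -0.09 to 0.18 for Gdf15 and -0.07 to 0.08 for Fga. The cause was not tested, beyond the shift of TPM. Clu, Krt20, Vcam1 and Prom1 kept an unadjusted p under 0.05 in all 8 fits with a library left out, Fgg in 7 (not without knockout 1), Hmox1 in 6 (not without knockout 1 or wildtype 2), Lcn2 in 3 (not without knockout 1 or 4 or wildtype 1, 2 or 4) and Anxa2 in 3 (not without knockout 2 or 4 or wildtype 1, 2 or 3).

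Same-numbered libraries shared only a number (correlations of their deviations 0.02, -0.08, 0.04 and 0.01). With the replicate block 10 genes and 0 members were called, and 6 members lay higher at an unadjusted p under 0.05. For genes of 5 to 27 counts a library (Havcr1, Cxcl1, Ccl2 and Fgg) depth limits what can be seen.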

Other observations

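Markers of the glomerular parietal epithelium, a cell layer known to share Prom1 and Vcam1 with injured tubule, included 2 of 7 genes without overlap. Both lay higher in knockout, where 1.97% of all genes did so without overlap. Of the 7, 3 were positive and 4 negative (median -0.07). The tight junction gene Cldn1 measured 37.7 ± 2.68 CPM (knockout) against 29.7 ± 2.18 CPM (wildtype), and Lad1, which encodes an anchoring filament protein, 48.1 ± 5.66 and 35.8 ± 4.81 CPM (SD, n = 4 each). Their log2 fold changes of 0.35 ± 0.09 and 0.42 ± 0.12 missed the threshold (edgeR quasi-likelihood, BH-adjusted p = 0.354 and 0.423). The other 5 (Pax8, Akap12, Ncam1, Prss23 and Bmp6) overlapped, 1 of them positive and 4 negative. The list summed to 531 to 644 CPM (knockout) against 458 to 597 CPM (wildtype). Of 13 proximal tubule genes 10 were positive and 3 negative, with 3 higher and 1 lower at an edgeR p under 0.05 before adjustment. Over all genes tested 3.11% lay higher and 3.08% lower at that p. The dicarboxylate transporter gene Slc13a3 measured 184 ± 10.9 against 144 ± 17.4 CPM, the organic anion transporter gene Slc22a6 160 ± 10.2 against 144 ± 0.872 CPM and the glucose transporter gene Slc5a2 214 ± 27.3 against 274 ± 23.4 CPM, each without overlap. Of 12 stromal genes 7 were positive and 5 negative (median 0.05), with 1 higher and 3 lower at that p. Lum, the gene of the matrix proteoglycan lumican, measured 39.9 ± 5.51 against 32.4 ± 2.05 CPM, Foxd1, a transcription factor gene of stromal progenitors, 8.14 ± 0.752 against 12.3 ± 1.94 CPM and the pericyte receptor gene Pdgfrb 162 ± 10.7 against 188 ± 2.86 CPM, all 3 without overlap. Each parietal, proximal tubule and stromal gene named here missed the threshold with edgeR and with DESeq2. The 7 mesothelial markers, which share Krt19 with the members, summed to 119 to 139 and 118 to 142 CPM, the 11 endothelial markers to 1226 to 1382 and 1369 to 1465 CPM, and the 11 distal convoluted tubule markers to 1530 to 1764 and 2034 to 2145 CPM. Of the 11 distal convoluted tubule markers 0 were positive and 11 negative (median log2 fold change -0.44). With edgeR 3 were called lower (Pvalb, Slc12a3 and Sall3), where 0.0809% of all genes tested were called. DESeq2 called 6, all lower, where it called 0.653% of genes. At an unadjusted edgeR p under 0.05, 8 lay lower and 0 higher, where 3.08% of all genes lay lower. In 7 the groups did not overlap, with knockout lower, which was so for 2.06% of all genes. The Sall3 call was lost with the replicate block (edgeR adjusted p = 0.198), the Xist covariate (0.051), without the Xist libraries (0.161), in all limma fits on TPM and with 6 of the 8 libraries left out in turn. The Slc12a3 call was lost without the Xist libraries (0.0715) and on unscaled TPM (limma adjusted p = 0.0702 and 0.0647). Pvalb stayed called under every alternative run.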
